A study of Mus musculus with 2 samples.

Results

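Group 2 innate lymphoid cells (ILC2) are lymphocytes without antigen receptors that release type 2 cytokines, and the 7 genes described here code for transcription factors and a cofactor used to build and keep that cell: Gata3, Rora, Bcl11b, Gfi1, Ets1, Maf and Lmo4. They were taken by their symbols from the gene lists of both matrices. All 7 were present there, of 31053 genes in each matrix. Single-cell RNA sequencing of bone marrow had been done on 1 library from animals with LCR1 knocked out (KO) and 1 library from wild-type animals (WT), all of the C57BL/6 strain, 8 to 12 weeks old and pooled within a genotype with equal numbers of each sex. Live CD45+ CD127+ cells free of lineage markers had been sorted in both cases, CD127 being a chain of the interleukin-7 receptor. The labels do not say where LCR1 lies or whether the deletion is in every cell of the animals. With 1 library per genotype no difference below has a replicate check and no test was run. Intervals are at 95% and cover counting error only.

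The KO library listed 8476 barcodes with 52137780 unique molecular identifiers (UMIs, the count of captured transcript molecules), and the WT library 20293 barcodes with 47883132 UMIs. Barcodes with at least 1000 genes and at most 10% mitochondrial UMIs were kept. These were 4343 KO cells (51.2% of barcodes) with a median of 7261 UMIs and 3290 WT cells (16.2%) with a median of 5371.5 UMIs. Of all listed barcodes 75 occurred in both libraries, and of the kept cells 0. Cells were placed in classes by marker genes, none of which is among the 7 factors, and 3387 KO cells (78.0%) and 2284 WT cells (69.4%) fell in a class. Id2, a regulator of the innate lymphoid lineage that is no member, separated the libraries: in ILC2 it stood at 250 CPM in KO and 997 CPM in WT cells (counts per 1000000, that is, the UMIs of a gene scaled to the sum of UMIs in its class).

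Common lymphoid progenitors (CLP) of the marrow give rise to innate lymphoid cells through a precursor that expresses Zbtb16 and Tcf7. Gata3, a zinc finger factor, is needed for ILC2 to form and to persist. Rora, a nuclear receptor, and Bcl11b, a zinc finger factor better known for T cell commitment, are both needed for a full ILC2 compartment. Gfi1 is a zinc finger repressor that sustains the ILC2 programme, Ets1 is an ETS-domain factor shared by most lymphocytes, Maf is a basic leucine zipper factor also used by T cells and other innate lymphoid cells, and Lmo4 is a LIM-domain adaptor that binds no DNA by itself. Id2 acts by holding E proteins, which bind DNA at E-box sequences, in inactive pairs.

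Of the 7 genes, 5 had an entry in the RefSeq promoter table (build GRCm38.p6), each a window of 300 bases that runs from 250 before to 50 after the start of transcription. Because Id2 differed between the libraries, the windows were searched on both strands for 2 E-boxes. One is CAGCTG, the same on either strand. The other is CACCTG, which the opposite strand reads as CAGGTG. The Gata3 window held 1, a CAGCTG whose first base is the last one before the start. Gfi1 held 1, a CACCTG whose first base lies at -42. Rora, Bcl11b and Lmo4 held 0. Of 27025 promoters in the table, 8810 (32.6%) held at least 1 of these E-boxes. The sequence AGATAA, 1 form of the GATA motif, or its reverse TTATCT was in 11.4% of the promoters and in 0 of the 5 members. Other forms of the motif were not counted. A match is a description of letters and not a binding site. The 4 windows below belong to the gene with the steepest step into ILC2 among those well detected (Gata3) and to the 3 well detected genes with the widest KO to WT differences in precursors and ILC2. Gata3 lies on the minus strand at chr2:9878551-9878850, Bcl11b on the minus strand at chr12:108003365-108003664, Rora on the plus strand at chr9:68653536-68653835 and Lmo4 on the minus strand at chr3:144205206-144205505. Capitals mark the E-box.
Gata3 promoter: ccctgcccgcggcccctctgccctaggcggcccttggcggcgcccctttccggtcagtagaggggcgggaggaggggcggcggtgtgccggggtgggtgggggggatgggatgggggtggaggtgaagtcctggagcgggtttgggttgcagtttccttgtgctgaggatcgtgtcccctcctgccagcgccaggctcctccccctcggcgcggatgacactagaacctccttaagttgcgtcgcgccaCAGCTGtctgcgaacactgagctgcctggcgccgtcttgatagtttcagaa
Bcl11b promoter: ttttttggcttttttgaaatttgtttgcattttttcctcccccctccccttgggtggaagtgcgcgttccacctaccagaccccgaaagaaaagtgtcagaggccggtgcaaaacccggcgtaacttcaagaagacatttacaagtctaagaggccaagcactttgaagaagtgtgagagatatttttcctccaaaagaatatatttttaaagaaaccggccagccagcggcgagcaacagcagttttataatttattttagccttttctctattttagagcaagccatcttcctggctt
Rora promoter: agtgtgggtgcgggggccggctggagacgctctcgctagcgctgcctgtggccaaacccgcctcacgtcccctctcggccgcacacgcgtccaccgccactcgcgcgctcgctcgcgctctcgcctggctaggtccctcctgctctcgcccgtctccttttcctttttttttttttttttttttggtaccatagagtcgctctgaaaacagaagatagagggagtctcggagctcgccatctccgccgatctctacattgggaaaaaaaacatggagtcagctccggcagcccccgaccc
Lmo4 promoter: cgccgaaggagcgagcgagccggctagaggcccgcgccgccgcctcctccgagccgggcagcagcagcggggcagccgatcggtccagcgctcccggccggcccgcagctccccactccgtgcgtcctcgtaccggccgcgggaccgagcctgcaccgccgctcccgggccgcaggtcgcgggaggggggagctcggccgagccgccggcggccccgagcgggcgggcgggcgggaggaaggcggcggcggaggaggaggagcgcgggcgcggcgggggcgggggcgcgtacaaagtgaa
The windows differ in base content, with 67.3% G and C in Gata3, 43.0% in Bcl11b, 60.3% in Rora and 81.3% in Lmo4.

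The classes run from CLP with low Ly6d (624 KO and 388 WT cells) and CLP with high Ly6d, a mark of the B lineage side (385 KO and 313 WT), to ILC precursors with fewer than 2 ILC2 markers detected (401 KO and 93 WT), ILC precursors with at least 2 of them (99 KO and 42 WT) and ILC2 (546 KO and 629 WT). Beside these stood NK or ILC1 cells (432 KO and 117 WT), CD3-expressing lymphocytes (257 KO and 102 WT), ILC3 (104 KO and 4 WT), early B cells (196 KO and 110 WT), plasmacytoid dendritic cells or pDC (165 KO and 171 WT) and basophils with related cells (178 KO and 315 WT). The WT precursors with ILC2 markers and the WT ILC3 held under 50 cells, and their values are given without a comparison between libraries. "Precursors" below means those with fewer than 2 ILC2 markers unless stated.

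**Figure D1:**
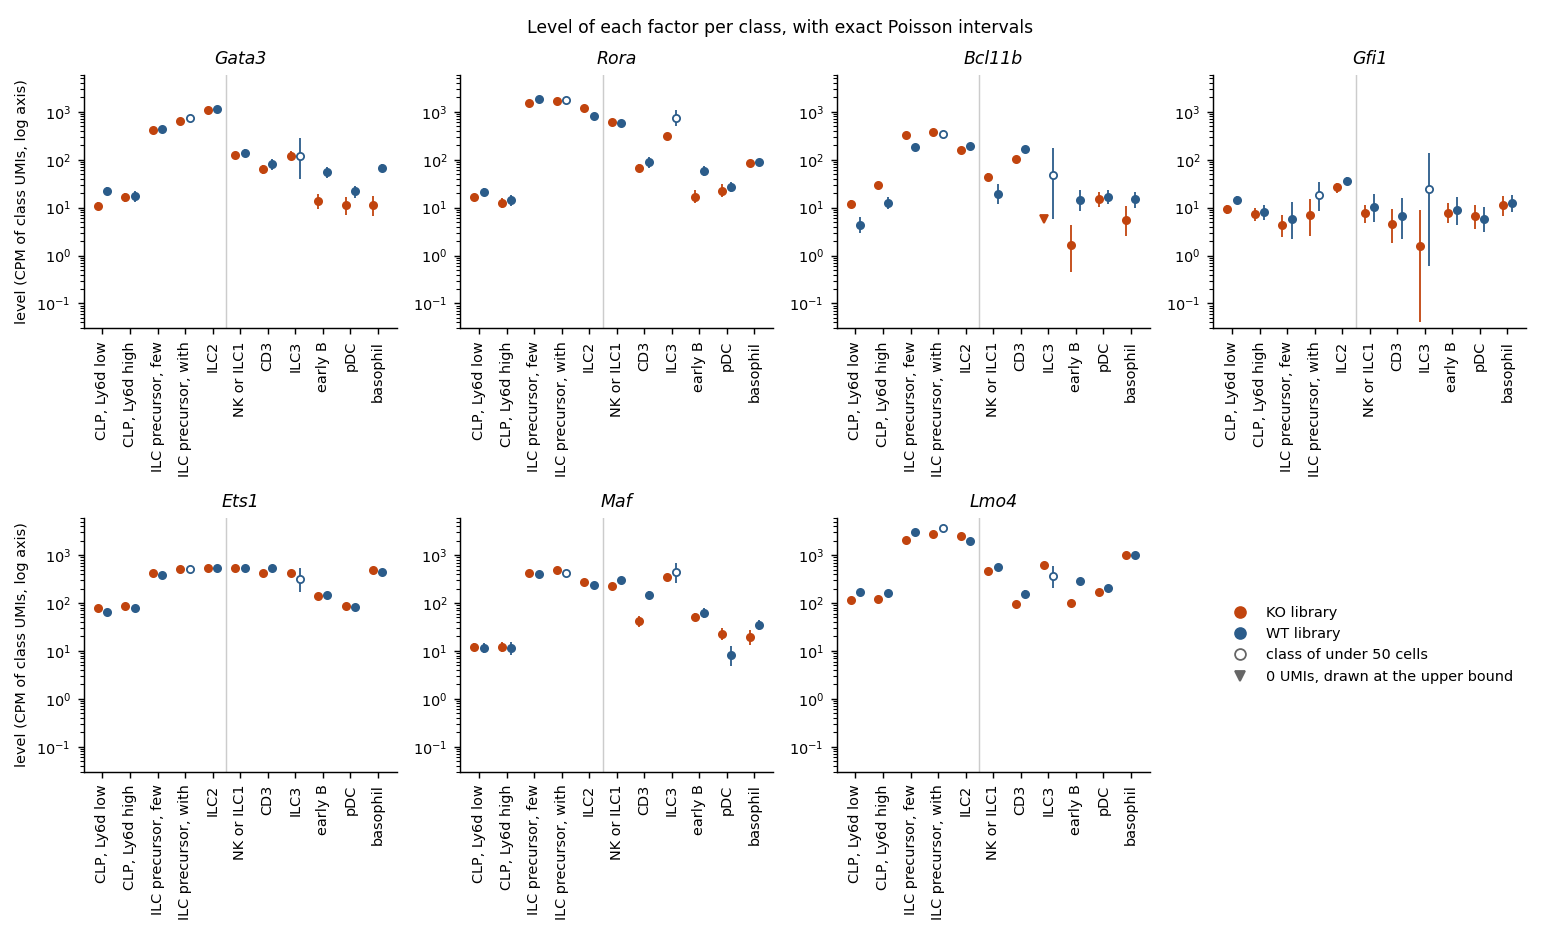
Level of each of the 7 factors (CPM of class UMIs, log axis) in each class, KO points left of WT points, with exact Poisson intervals; the grey line parts the path to ILC2 from other classes. Gata3 is highest in ILC2 (1114 CPM in KO, 1159 CPM in WT), whereas Ets1 lies at 452 to 550 CPM in ILC2, NK or ILC1 cells and basophils.

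Gata3 (ENSMUSG00000015619, chr2:9857078-9890034 in mm10, minus strand) climbed at each stage to ILC2 in both libraries. In the KO library it stood at 10.9 CPM in Ly6d-low CLP, 423 in precursors, 629 in precursors with ILC2 markers and 1114 in ILC2. In the WT library the same stages gave 22.5, 440, 747 and 1159 CPM. The level in ILC2 was 2.63-fold that in precursors in the KO library (2.47 to 2.80) and likewise 2.63-fold in the WT library (2.39 to 2.91). ILC2 stood above every other class in both libraries without overlap of the intervals. NK or ILC1 cells had 125 KO and 140 WT CPM, and ILC3 of the KO library had 122 CPM. In the KO library NK or ILC1 cells and ILC3 overlapped. High-Ly6d CLP, early B cells, basophils, pDC and low-Ly6d CLP followed in that order, each overlapping the next, but the ends of this run, at 16.5 and 10.9 CPM, did not overlap.

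Detection followed the level. With every cell thinned to 1500 UMIs, so that depth is equal, 78.4% of KO ILC2 (74.7 to 81.8) and 74.4% of WT ILC2 (70.8 to 77.8) had a Gata3 UMI, against 96.9% in KO and 96.7% in WT cells at full depth. In precursors the thinned shares were 40.1% in KO and 35.5% in WT cells. Early B cells should lack Gata3 and give its background, which was 1.02% in KO and 10.9% in WT cells, at median depths of 11846 and 3718 UMIs. ILC2 had median depths of 4583.5 UMIs in KO and 5432 UMIs in WT cells. The thinned shares in WT CLP of either kind, WT pDC and WT CD3 cells (4.38%, 7.03%, 4.09% and 7.84%) lay under the WT background, so no Gata3 expression is read from them. WT basophils, at 13.0%, were close to that background. Median depths were 15547 UMIs in WT Ly6d-low CLP, 9341 in Ly6d-high CLP, 12548 in pDC and 7333.5 in CD3 cells. Since WT early B cells were shallower, Gata3 expression in those classes is not excluded either.

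Rora (ENSMUSG00000032238, chr9:68653786-69388246, plus strand) peaked before ILC2 taken as a whole. The KO library had 16.5 CPM in Ly6d-low CLP, 1500 in precursors, 1651 in precursors with ILC2 markers and 1180 in ILC2. The WT library had 21.4, 1861, 1790 and 799 CPM at the same stages. The level in ILC2 was thus 0.787-fold that in precursors in the KO library (0.753 to 0.822) and 0.430-fold in the WT library (0.405 to 0.455). NK or ILC1 cells came next in both libraries, with 598 KO and 581 WT CPM, and KO ILC3 had 314 CPM. Basophils and CD3 cells overlapped in both libraries at 67.0 to 89.7 CPM. Thinned shares were 68.6% in KO and 72.0% in WT precursors, and 70.7% in KO and 55.6% in WT ILC2. The early B background was 2.55% in KO and 8.18% in WT cells.

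Bcl11b (ENSMUSG00000048251, chr12:107910403-108003602, minus strand) had its highest value in precursors with ILC2 markers and a lower one in ILC2 in both libraries. Its step from precursors to ILC2 differed between the libraries. In the KO library it had 11.9 CPM in Ly6d-low CLP, 331 in precursors, 374 in precursors with ILC2 markers and 159 in ILC2. In the WT library it had 4.41, 186, 349 and 198 CPM. ILC2 stood at 0.479-fold the level of precursors in the KO library (0.428 to 0.535) and at 1.06-fold in the WT library, where the interval, 0.903 to 1.25, took in no difference. WT ILC2, precursors and CD3 cells overlapped in level. The gene was detected in a minority of cells. In thinned ILC2 18.7% of KO and 24.3% of WT cells had a UMI, and in precursors 22.2% of KO and 16.1% of WT cells, over an early B background of 0% in KO (up to 1.86%) and 5.45% in WT cells. KO ILC3 had 0 Bcl11b UMIs in 104 cells, with an upper bound of 5.86 CPM.

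Gfi1 (ENSMUSG00000029275, chr5:107716657-107726036, minus strand) was scarce throughout and highest in ILC2 in both libraries. Its level was 9.14 CPM in KO Ly6d-low CLP, 4.35 in KO precursors and 26.4 in KO ILC2. The WT values were 14.5, 5.89 and 36.5 CPM. ILC2 had 6.07-fold the level of precursors in the KO library (3.50 to 11.2) and 6.20-fold in the WT library (2.78 to 17.2), from 16 KO and 6 WT UMIs in precursors. Over the alternatives of processing this step ran from 2.55 to 7.44 in the KO and from 2.28 to 7.54 in the WT library. Neighbouring intervals overlapped from the second class to the last, so neighbours beside ILC2 could not be placed in order. Precursors had 0.476-fold the level of Ly6d-low CLP in the KO library (0.262 to 0.812) and 0.407-fold in the WT library (0.146 to 0.920). A Gfi1 UMI was found in 4.58% of thinned KO ILC2 and 5.09% of thinned WT ILC2. At full depth the shares were 11.5% in KO and 18.3% in WT ILC2.

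Maf (ENSMUSG00000055435, chr8:115682942-115707794, minus strand) was highest in precursors and lower in ILC2. It stood at 12.2 CPM in KO Ly6d-low CLP, 417 in KO precursors, 483 in KO precursors with ILC2 markers and 269 in KO ILC2, and at 11.6, 400, 433 and 243 CPM in the WT library. ILC2 had 0.646-fold the level of precursors in the KO library (0.590 to 0.706) and 0.608-fold in the WT library (0.540 to 0.685). ILC3 of the KO library, at 348 CPM, had more Maf than KO ILC2. NK or ILC1 cells had 230 KO and 298 WT CPM, below ILC2 in the KO library and above ILC2 in the WT library.

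Ets1 (ENSMUSG00000032035, chr9:32636221-32757820, plus strand) was not particular to ILC2 in level. ILC2 had 550 KO and 542 WT CPM, NK or ILC1 cells 526 KO and 542 WT CPM, CD3 cells 428 KO and 541 WT CPM, and precursors 417 KO and 392 WT CPM. In the WT library the first 3 of these overlapped. Basophils, which are not lymphocytes, had 501 KO and 452 WT CPM, overlapping ILC2 in the KO library and below ILC2 in the WT library. Early B cells had 143 KO and 146 WT CPM, and CLP had 63.9 to 84.8 CPM over both libraries and both kinds. ILC2 had 1.32-fold the level of precursors in the KO library (1.23 to 1.42) and 1.38-fold in the WT library (1.24 to 1.54).

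Lmo4 (ENSMUSG00000028266, chr3:144188530-144205220, minus strand) was detected in most cells of the ILC2 path. The KO library had 116 CPM in Ly6d-low CLP, 2028 in precursors, 2773 in precursors with ILC2 markers and 2466 in ILC2. The WT library had 170, 3010, 3705 and 1961 CPM. From this the level in ILC2 was 1.22-fold that in precursors in the KO library (1.18 to 1.26) and 0.652-fold in the WT library (0.625 to 0.680). Basophils came after these classes in both libraries, with 1021 KO and 1025 WT CPM. Thinned shares in ILC2 were 87.5% in KO and 81.2% in WT cells, and in precursors 67.1% in KO and 74.2% in WT cells.

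Not every factor was highest in ILC2. Gata3 and Gfi1 were so in both libraries, whereas Rora and Maf were higher in precursors with few or with more ILC2 markers than in ILC2. Lmo4 was higher in both kinds of precursor than in ILC2 in the WT library, and in the KO library in the precursors with at least 2 ILC2 markers but not in those with fewer. Bcl11b was higher in both kinds of precursor than in ILC2 in the KO library. In the WT library it was so in the precursors with at least 2 ILC2 markers, while those with fewer overlapped ILC2. Ets1 overlapped between ILC2 and NK or ILC1 cells. The levels of most factors moved together from class to class. Over the 20 class and library points with at least 50 cells, the Pearson correlation of log2(CPM + 5) was 0.926 between Rora and Maf, 0.925 between Gata3 and Rora and 0.887 between Rora and Lmo4. Gfi1 stood apart, with values of -0.006 to 0.32 against the other 6. At these points it had at most 14.5 CPM outside ILC2, near the 5 added before the logarithm. Its correlations thus rest largely on the ILC2 points, and no separate regulation is read from them. The points share 2 libraries and differ in depth, so these values describe and carry no p. Of 4199 other genes ranked in the same way, Ormdl3, a regulator of sphingolipid synthesis, followed Gata3 (0.953) and Rora (0.945), and Itgb3, an integrin chain, followed Rora (0.950). Camk4, a calcium-dependent kinase, came first for Bcl11b (0.843), Ldha, a glycolytic enzyme, for Gfi1 (0.860), Cd84, a surface receptor of leukocytes, for Ets1 (0.967), Podnl1 for Maf (0.956) and Hif1a, the oxygen-sensing factor, for Lmo4 (0.947). Of the 3 leading genes of each factor, Rxrg (0.811 with Bcl11b) was a gating marker. Rxrg is on the ILC2 list but was higher in precursors (77.8 KO and 109 WT CPM) than in ILC2 (33.1 KO and 37.0 WT CPM).

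The second question was how the factors stood in KO against WT cells of the same class. A factor was counted as higher or lower at a 1.5-fold difference in CPM, provided that its UMIs in KO and WT cells came to 50 or more and that either level reached 50 CPM. In precursors 6 of the 7 factors met those minimums, all but Gfi1, and 1 of the 6, Bcl11b, was higher in KO cells, while 0 were lower. Over all 3429 genes measured there, 4.52% were higher and 2.01% lower, or 6.53% in either direction. Bcl11b stood at 331 CPM in KO precursors and 186 CPM in WT precursors, a ratio of 1.78 (1.53 to 2.08). It kept to 1.72 to 1.85 over the alternatives of processing. A Bcl11b UMI was present in 22.2% of thinned KO precursors (18.2 to 26.6) and 16.1% of thinned WT precursors (9.32 to 25.2), and those intervals overlap. Markers of CD3 cells, which also express Bcl11b, summed to 13.3 CPM in KO and 6.87 CPM in WT precursors, against 1834 KO and 1808 WT CPM in CD3 cells, and 0 of 3 in KO and 1 of 3 in WT precursors (Cd3e) were at 0.

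Lmo4 was just short of the rule in precursors, with 2028 KO and 3010 WT CPM and a ratio of 0.674 (0.646 to 0.703). With 1 more marker asked of each cell it was 0.663 and passed. Rora had 1500 KO and 1861 WT CPM there, a ratio of 0.806 (0.765 to 0.850). Gata3, Ets1 and Maf had ratios of 0.961, 1.06 and 1.04, each with an interval that took in 1. Id2 had 268 KO and 1650 WT CPM in the same cells.

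In ILC2 0 of the 6 measured factors passed the rule, beside 3.97% of 2925 genes in either direction. Gata3 had 1114 KO and 1159 WT CPM and a ratio of 0.961 (0.917 to 1.01), and 0.943 to 1.00 over the alternatives. Ets1 had a ratio of 1.02 (0.949 to 1.09). Rora, at 1180 KO and 799 WT CPM, had a ratio of 1.48 (1.40 to 1.55), next to the limit, and passed it with a minimum of 2000 genes per cell (1.60), with 1 more marker (1.52), in clusters named by the same markers (1.51) and with TMM scaling (1.54). With cells thinned before gating it was 1.26. Lmo4 had a ratio of 1.26 (1.22 to 1.30), Maf 1.11 (1.00 to 1.22) and Bcl11b 0.803 (0.711 to 0.906). Bcl11b alone passed, at 0.646, with cells thinned before gating. Rora and Lmo4 were therefore on opposite sides of 1 in ILC2 and in precursors, and so was Bcl11b the other way round. Summed markers of some other lineages were lower in KO than in WT ILC2, at 59.6 KO and 165 WT CPM for plasma cells and 137 KO and 237 WT CPM for basophils. Those of NK or ILC1 and CD3 cells were near 0, at 16.8 KO and 6.98 WT CPM and at 15.3 KO and 7.52 WT CPM. Their part in these ratios was not tested. Of the plasma cell markers 1 of 5 was at 0 in each library (Tnfrsf17), and of the basophil markers 2 of 10 in KO (Prg2, Epx) and 1 of 10 in WT ILC2 (Epx).

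**Figure D2:**
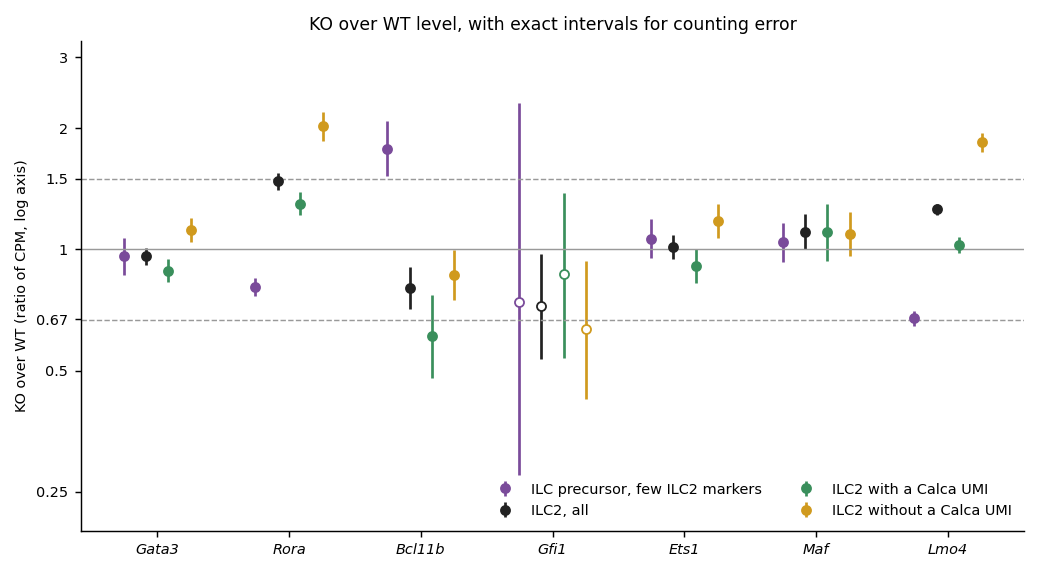
Ratio of KO over WT level (log axis) of each factor in 4 sets of cells, with exact intervals; dashed lines mark 1.5-fold either way, and open points mark Gfi1, which was below the minimum level. Rora and Lmo4 lie above the upper line in ILC2 without a Calca UMI (2.02 and 1.85), and Bcl11b lies above it in precursors (1.78).

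Calca, which codes for the neuropeptide CGRP and is one of the ILC2 gating markers, divides marrow ILC2. After thinning to 1500 UMIs, a Calca UMI was found in 229 of the KO ILC2 (41.9%) and 304 of the WT ILC2 (48.3%), with median depths of 4385 and 4912 UMIs, and was missing from 317 KO and 325 WT cells, with median depths of 4749 and 5808 UMIs. Levels of these cells are given at full depth. Within each library the cells with a Calca UMI had more Rora. Those with the UMI had 1609 KO and 1237 WT CPM, and those without had 896 KO and 443 WT CPM. Lmo4 followed, at 3074 KO and 2997 WT CPM with the UMI and 2064 KO and 1118 WT CPM without it. Gata3 had 1368 KO and 1543 WT CPM with the UMI and 946 KO and 847 WT CPM without it. Bcl11b ran the other way, at 94.4 KO and 155 WT CPM with the UMI and 201 KO and 232 WT CPM without it. Rora in KO ILC2 with the UMI (1534 to 1687) overlapped both kinds of KO precursor. In WT ILC2 with the UMI it was below both kinds of WT precursor.

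Rora and Lmo4 passed the rule in ILC2 without a Calca UMI and not in those with it, a difference between the sets that was not tested. Without the UMI, 2 of 6 measured factors were higher in KO cells and 0 lower, beside 3.57% higher and 2.92% lower of 2915 genes (6.48% either way). Rora had a ratio of 2.02 (1.86 to 2.20) and Lmo4 one of 1.85 (1.75 to 1.95). Of these cells, thinned, 59.0% in KO (53.4 to 64.5) and 37.2% in WT (32.0 to 42.7) had a Rora UMI, and 82.0% in KO and 70.2% in WT had an Lmo4 UMI. Ets1 shares were also apart, at 53.0% in KO (47.3 to 58.6) and 40.9% in WT (35.5 to 46.5), though its ratio of levels was short of the rule. Leaving out gated ILC2 that fell outside the 2 clusters named ILC2, a choice made after seeing the data, gave 2.16 for Rora and 1.84 for Lmo4. When cells were thinned before gating, which left 92 KO and 91 WT cells, Lmo4 kept 1.89 but Rora gave 1.45, short of the rule. Gata3, Ets1, Maf and Bcl11b had ratios of 1.12, 1.18, 1.09 and 0.866.

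In ILC2 with a Calca UMI 1 of 6 measured factors passed, Bcl11b, which was lower in KO cells, beside 2.91% higher and 4.22% lower of 3060 genes (7.12% either way). Its ratio was 0.609 (0.479 to 0.769), and thinned shares were 13.1% in KO (9.02 to 18.2) and 21.7% in WT cells (17.2 to 26.8). That call was lost with 1 more marker and in clusters, with the highest ratio over the alternatives at 0.719. Lmo4 had a ratio of 1.03 (0.981 to 1.07), Rora 1.30 (1.22 to 1.39) and Gata3 0.886 (0.831 to 0.945).

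**Figure D3:**
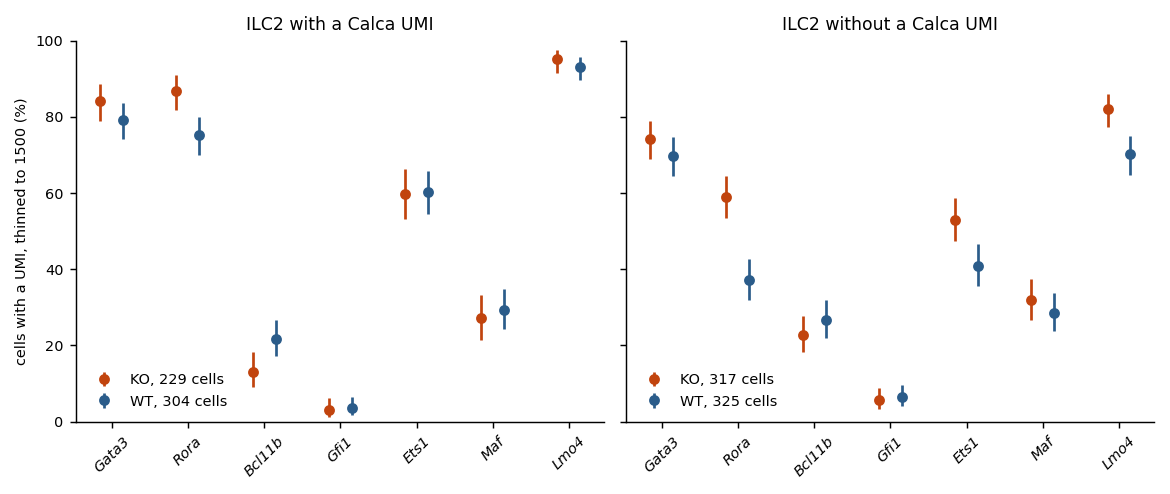
Share of ILC2 with a UMI of each factor (%), cells thinned to 1500 UMIs, KO left of WT, with exact Clopper-Pearson intervals, for ILC2 with and without a Calca UMI. Without Calca, the Rora shares (59.0% in KO, 37.2% in WT), the Lmo4 shares (82.0% in KO, 70.2% in WT) and the Ets1 shares (53.0% in KO, 40.9% in WT) are apart beyond their intervals, whereas the Gata3 shares overlap.

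Splitting the thinned cells by an Id2 UMI gave another view of the same factors. In ILC2 with an Id2 UMI (150 KO and 417 WT cells) the KO over WT ratio was 1.70 for Rora and 1.28 for Lmo4. In ILC2 without one (396 KO and 212 WT cells) it was 1.05 for Rora (0.978 to 1.12) and 1.01 for Lmo4 (0.961 to 1.05). In precursors with an Id2 UMI (108 KO and 75 WT cells) Bcl11b had 190 KO and 223 WT CPM, a ratio of 0.852 (0.691 to 1.05). The precursors without one held 293 KO and 18 WT cells, too few for a comparison, with 384 KO and 31.2 WT CPM. Since Id2 itself differed between the libraries, cells with and without its UMI are not like sets in KO and WT.

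Away from the ILC2 path, NK or ILC1 cells, CLP and pDC had no measured factor past the rule. In NK or ILC1 cells 0 of 5 measured factors passed, beside 4.44% of 3404 genes, with ratios of 0.771 (Maf) to 1.03 (Rora). Bcl11b was under the minimum level in NK or ILC1 cells, with 43.35 KO and 19.45 WT CPM, a ratio of 2.23 (1.37 to 3.83). Of the factors that met the minimum level in CLP, Ets1 and Lmo4, 0 of 2 passed in Ly6d-low CLP (1.5% of all genes measured) and 0 of 2 in Ly6d-high CLP (3.27%). Bcl11b was under the minimum in both kinds of CLP. It had 11.9 KO and 4.41 WT CPM in Ly6d-low CLP, a ratio of 2.71 (1.8 to 4.2). At full depth it had a UMI in 3.85% of KO and 3.87% of WT cells of that class. In Ly6d-high CLP it had 29.5 KO and 12.6 WT CPM, a ratio of 2.35 (1.70 to 3.29). There 4.68% of KO and 4.79% of WT cells had a UMI at full depth. In pDC 0 of 2 passed, beside 4.21%.

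In CD3 cells 3 of 6 measured factors were lower in the KO library and 0 higher, in a class where 6.90% of 2944 genes were lower and 9.65% differed either way. Maf had 41.7 KO and 149 WT CPM, a ratio of 0.279 (0.202 to 0.383), and thinned shares of 4.67% in KO and 14.7% in WT cells. Bcl11b had 104 KO and 165 WT CPM, a ratio of 0.626 (0.492 to 0.798), and Lmo4 93.1 KO and 153 WT CPM, a ratio of 0.607 (0.472 to 0.783). Maf alone of the 3 passed with TMM scaling or in clusters, and Lmo4 turned to a ratio of 1.04 in clusters. With cells thinned before gating, Maf was under the minimum of UMIs (29.0 KO and 247 WT CPM) and Bcl11b passed. Markers of several other classes were lower in KO than in WT CD3 cells. They summed to 54.0 KO and 93.3 WT CPM for ILC2 (2 of 10, Il5 and Il13, at 0 in both), 9.76 KO and 50.7 WT CPM for ILC3 (4 of 6 at 0 in KO and 3 of 6 in WT), 42.3 KO and 140 WT CPM for plasma cells (1 of 5 at 0 in both) and 9.76 KO and 48.0 WT CPM for granulocytes (5 of 9 at 0 in KO and 4 of 9 in WT). Zbtb16 stood at 5.86 KO and 30.7 WT CPM. Their part in the lower factors was not tested.

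In early B cells 3 of 5 measured factors were lower in KO cells, beside 9.35% lower and 14.2% either way of 3305 genes. Gata3 had 13.7 KO and 55.5 WT CPM, Rora 17.0 KO and 59.1 WT CPM, and Lmo4 102 KO and 283 WT CPM. Markers of ILC2 also summed to less in KO early B cells, at 28.6 KO and 117 WT CPM (3 of 10 at 0 in KO and 2 of 10 in WT). Those of plasma cells did so too, at 94.2 KO and 237 WT CPM. Those of CLP and of monocytes or macrophages were higher in KO cells. Their part in the 3 lower factors, Lmo4 included, was not tested. In basophils 1 of 4 was lower, beside 3.75% lower and 5.48% either way, and this was Gata3 at 11.2 KO and 68.2 WT CPM. Median depths were 11846 KO and 3718 WT UMIs in early B cells and 6577.5 KO and 3364 WT UMIs in basophils. Early B cells served as background for Gata3 and Rora, so no expression of these 2 is read there, nor of Gata3 in basophils, whose thinned shares (1.69% in KO and 13.0% in WT cells) overlapped that background. Rora in KO basophils was above it, with 10.1% (6.10 to 15.5) against 2.55% in KO early B cells (0.833 to 5.85). With early B cells thinned before gating, 0 factors passed.

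The factors were next counted cell by cell, in cells thinned to 1500 UMIs. Precursors had a mean of 2.86 of the 7 factors in KO and 2.84 in WT cells (SD over cells 1.56 and 1.38), ILC2 had 3.46 in KO and 3.20 in WT cells (1.09 and 1.28), and Ly6d-low CLP 0.351 in KO and 0.528 in WT cells (0.613 and 0.772). At least 4 factors were found in 49.3% of KO ILC2 (45.0 to 53.6) and 41.0% of WT ILC2 (37.1 to 45.0), and in 35.4% of KO (30.7 to 40.3) and 32.3% of WT precursors (22.9 to 42.8). NK or ILC1 cells had 6.48% in KO (4.35 to 9.23) and 17.9% in WT cells (11.5 to 26.1), and CD3 cells 0.778% in KO and 7.84% in WT cells. Without thinning the shares were 90.5% in KO and 92.7% in WT ILC2, and 77.3% in KO and 78.5% in WT precursors. The order of KO and WT ILC2 thus turned with depth, and none is read from it. In NK or ILC1 cells, markers of ILC2 summed to 73.9 KO and 119 WT CPM (2 of 10 at 0 in KO and 3 of 10 in WT). Those of CD3 cells and ILC3 were higher in KO cells. The part of such transcripts in the lower KO share of that class was not tested.

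**Figure D4:**
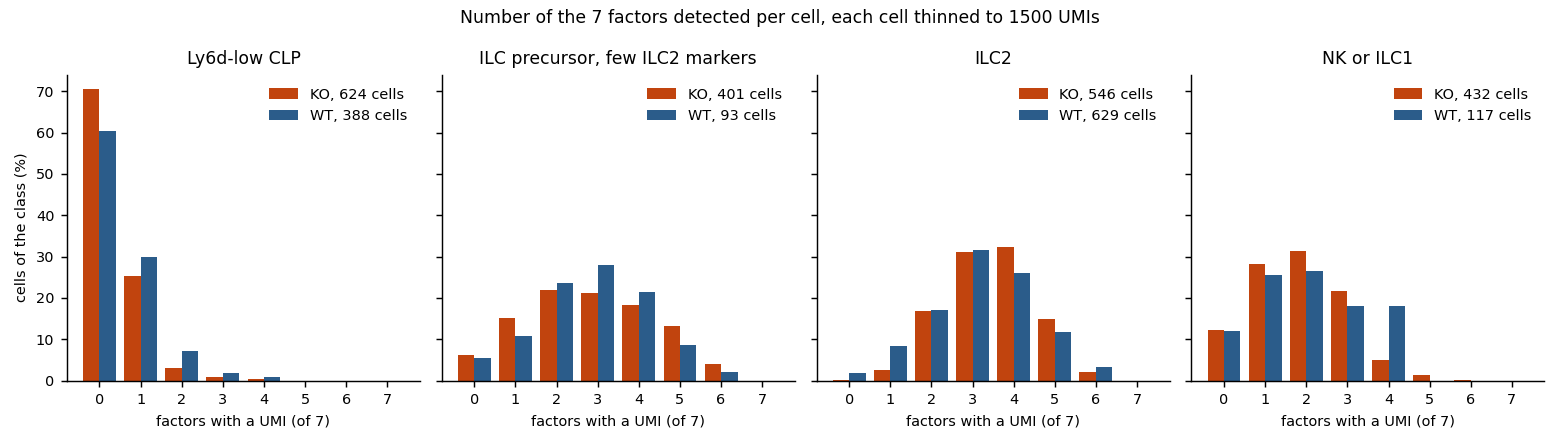
Share of cells (%) by the number of the 7 factors with a UMI, for 4 classes, KO bars left of WT bars, each cell thinned to 1500 UMIs. CLP pile up at 0 factors, precursors spread over 1 to 5, and ILC2 centre on 3 and 4.

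In the KO library precursors spread more widely over these counts than ILC2 did (SD 1.56 and 1.09). The WT values were closer (1.38 and 1.28). In KO precursors 6.23% of thinned cells had 0 factors and in KO ILC2 0.183%. The WT shares were 5.38% in precursors (1.77 to 12.1) and 1.75% in ILC2 (0.876 to 3.11), and those intervals overlap. Gata3, Rora and Lmo4 were met together in 29.2% of KO precursors (24.8 to 33.9) and 22.6% of WT precursors (14.6 to 32.4). If each had been detected on its own, the product of the 3 shares would be 18.5% in KO and 19.0% in WT precursors, the second of these inside the interval. In ILC2 the 3 were together in 51.3% of KO cells (47.0 to 55.5) and 40.5% of WT cells (36.7 to 44.5), against products of 48.5% in KO, inside the interval, and 33.6% in WT cells, below it.

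Pairs of factors were counted in the same way. Among the pairs whose product gave at least 10 cells, all 15 in KO precursors and 11 of 12 in WT precursors were met together more often than the product of their shares, with a median ratio of 1.17 in KO (1.07 to 1.54) and 1.13 in WT (0.918 to 1.30). In ILC2 11 of 19 pairs in KO and 13 of 19 in WT cells were above 1, with medians of 1.01 in KO and 1.04 in WT cells. This ratio cannot exceed 1 over the larger of the 2 single shares, a lower ceiling in ILC2, where Gata3 and Lmo4 were widely detected. The ILC2 pairs also include some with Gfi1, and no difference between the classes is read from it. The highest ratio in KO precursors was that of Gata3 and Bcl11b: 34.2% of Gata3-positive and 14.2% of Gata3-negative thinned KO precursors had a Bcl11b UMI. For Rora, Bcl11b was in 27.6% of Rora-positive and 10.3% of Rora-negative KO precursors. In WT precursors Bcl11b was in 19.4% of Rora-positive and 7.69% of Rora-negative cells. In KO ILC2 the same pair was below 1 (0.846), and in WT ILC2 it was 0.963. The pairs share cells, so these ratios are a description.

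**Figure D5:**
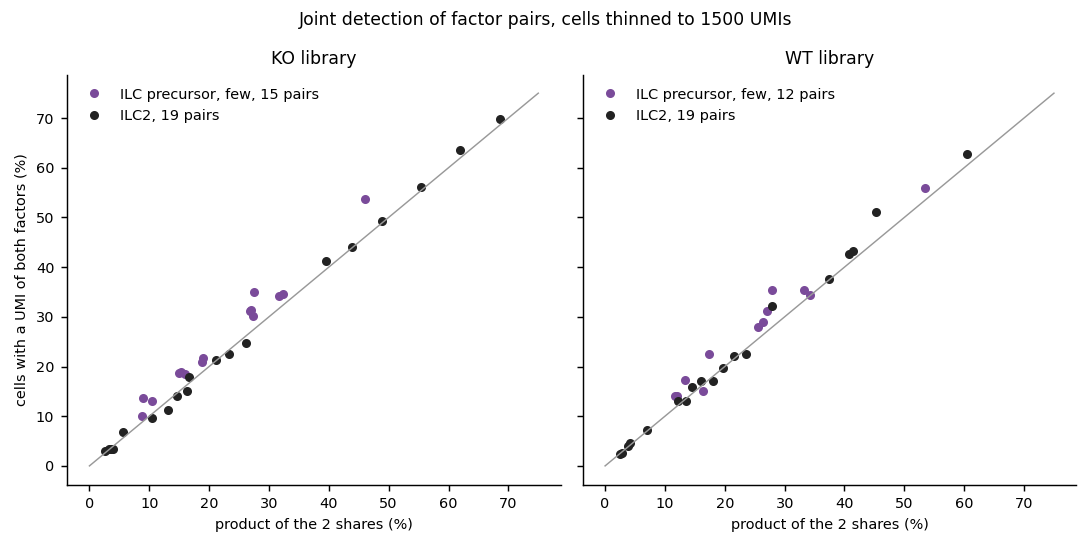
Share of thinned cells with a UMI of both factors of a pair (%) against the product of the 2 single shares (%), KO panel left of WT panel; the grey line marks equality. Precursor pairs lie above the line in 15 of 15 (KO) and 11 of 12 (WT) cases, and ILC2 pairs lie close to it.

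Among 33 other regulators of innate lymphoid cells, 21 were measured in precursors, of which 3 were higher in KO cells, Runx1 and Satb1 among them, and 3 lower (Id2, Lef1, Tox2). Over all 3429 genes measured there, 4.52% were higher and 2.01% lower. The median log2 ratio of the list was -0.17, against -0.01 over all genes measured and 0.00 over the factors. Satb1, a chromatin organiser, had 221 KO and 127 WT CPM, and Tox2, an HMG-box factor, 231 KO and 437 WT CPM. Tcf7, an early innate lymphoid factor, had 655 KO and 858 WT CPM and Zbtb16, the precursor-defining zinc finger, 526 KO and 714 WT CPM, both short of the rule, and both are gating markers. In ILC2 15 of the list were measured, 1 higher (Hes1, a Notch target, 141 KO and 61.5 WT CPM) and 1 lower (Id2), beside 3.97% of 2925 genes in either direction. The median of the list was 0.04, against -0.06 over all genes and 0.08 over the factors.

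Of 17 genes described as controlled by these factors in ILC2 or T cells, 9 were measured in ILC2, of which 2 were higher in KO cells and 0 lower, beside 3.97% of all 2925 genes in either direction. Icos, a costimulatory receptor, had 792 KO and 458 WT CPM, a ratio of 1.73 (1.62 to 1.85), and Il18r1, which binds interleukin-18, had 88.6 KO and 55.6 WT CPM. Il1rl1, the interleukin-33 receptor and a gating marker, had 567 KO and 640 WT CPM, and Il17rb, the interleukin-25 receptor, 310 KO and 281 WT CPM. Il7r, the receptor chain used in the sort, had 1662 KO and 1624 WT CPM. The median log2 ratio of the list was 0.07, against -0.06 over all genes measured. In precursors 7 were measured, 1 higher (Cd69, an early activation antigen, 255 KO and 121 WT CPM) and 1 lower (Arg1, arginase, 70.5 KO and 132 WT CPM). This stood beside 6.53% of 3429 genes in either direction, with a median of 0.39 against -0.01. In NK or ILC1 cells 8 were measured and 4 were lower in KO cells (Il2ra, Icos, Arg1 and Zfpm1), beside 4.44% of 3404 genes in either direction, with a median of -0.46 against -0.05.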

How the data were processed

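Per the labels' protocols, cells were sorted from marrow and prepared with 10x Genomics 3' chemistry. Values are whole UMI counts as the authors deposited them, from Cell Ranger (version 3.1.0, per the file headers) with mm10, per the submitters' processing notes. These notes also name Seurat, with no role. UMIs tag the 3' end, so levels are compared between classes and libraries, not between genes. Whether counting used strand is not stated in the sources used here. Genes overlapping the factors and present in the matrices held at most 10.1 CPM in precursors and ILC2.

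Cells with at least 1000 genes and at most 10% mitochondrial UMIs were kept. A cell entered a class with at least 3 markers of its list detected (2 for CD3 and ILC3) and 8 marker UMIs per 10000; CLP were split at 2 Ly6d UMIs per 10000. This scoring was set after seeing the data. Cells that passed a gate but fitted no class (152 KO, 364 WT) were left out, possible doublets among them. They include 44 KO and 19 WT cells that passed both the CLP and the ILC precursor gates, which are neighbouring stages. A further 804 KO and 642 WT cells passed no gate. Scrublet (in scanpy 1.11.5) marked 48 KO cells (1.11%) and 0 WT cells, so it failed in WT, and removing the top 8% of scores was an alternative. In ILC2, 36.6% of KO and 26.2% of WT cells had exactly 3 markers.

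UMIs were summed per class and divided by all class UMIs (CPM), with exact Poisson intervals, exact binomial intervals for ratios and Clopper-Pearson intervals for shares (scipy 1.17.1). All kept cells had at least 1500 UMIs, so thinning dropped 0 cells. Intervals cover counting error only. TMM factors came from edgeR 4.0.16. The code was tested on simulated data. Coordinates are from GENCODE M21, and promoters are from RefSeq. The named genes were the 7 factors, the 3 genes most correlated with each over class levels, and the 2 lists, of which some genes are not reported here. The factors, markers and lists were chosen with earlier results of these data known. No per-sample column was left unmapped.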

Additional observations from a re-analysis of the deposited data

Results flagged for a closer look

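For 3 factors the KO over WT ratio lay on opposite sides of 1 in ILC2 and in ILC precursors with few ILC2 markers, with intervals that left out 1 in both. Rora had a ratio of 1.48 in ILC2 and 0.806 in precursors. Lmo4 had 1.26 in ILC2 and 0.674 in precursors. Bcl11b had 0.803 in ILC2 and 1.78 in precursors. With 1 library per genotype the difference between the classes was not tested.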

How the results depend on the processing

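No paired analysis was possible because each genotype had 1 library. The count of factors 1.5-fold or more apart moved as follows. Shares of all genes past the rule under these settings are not reported here, so no result about the factors is read from the counts. With at least 500 genes per cell it was 1 in Ly6d-low CLP (Lmo4) and 3 in basophils (Gata3, Rora, Maf). With at least 2000 genes it was 1 in ILC2 (Rora), 1 in NK or ILC1 cells (Bcl11b) and 0 in basophils. With 1 more marker it was 2 in precursors (Bcl11b, Lmo4), 1 in ILC2 (Rora), 0 in ILC2 with a Calca UMI and 1 in NK or ILC1 cells (Bcl11b). In Leiden clusters it was 1 in ILC2 (Rora), 0 in ILC2 with a Calca UMI, 1 in NK or ILC1 cells (Lmo4) and 1 in CD3 cells (Maf). With cells thinned before gating it was 1 in Ly6d-high CLP (Lmo4), 1 in ILC2 (Bcl11b), 1 in ILC2 without a Calca UMI (Lmo4), 2 in NK or ILC1 cells (Ets1, Lmo4), 1 in CD3 cells (Bcl11b) and 0 in early B cells. With TMM scaling it was 1 in ILC2 (Rora) and 1 in CD3 cells (Maf). With no minimum level it was 3 in Ly6d-low CLP, 1 in Ly6d-high CLP, 1 in NK or ILC1 cells, 2 in pDC and 3 in basophils. The Lmo4 ratio in CD3 cells reversed to 1.04 in Leiden clusters. The cause was not tested.

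Cells with at least 4 factors were 46.4% of WT ILC2 at no more than 5% mitochondrial UMIs, 49.4% of KO and 46.5% of WT precursors in Leiden clusters, and without thinning 90.5% of KO and 92.7% of WT ILC2 and 77.3% of KO and 78.5% of WT precursors. Removing the highest doublet scores, or gated ILC2 outside the ILC2 clusters (chosen after seeing the data), moved no count by over 1.5 times. Over the alternatives the Gata3 level in ILC2 was 2.19 to 3.28 times that in precursors in KO and 1.92 to 3.20 times in WT cells. The same step was 0.753 to 0.963 in KO and 0.375 to 0.604 in WT cells for Rora. For Bcl11b it was 0.3345 to 0.586 in KO and 0.707 to 1.38 in WT cells. For Ets1 it was 1.21 to 1.62 in KO and 1.18 to 1.68 in WT cells. For Maf it was 0.556 to 0.791 in KO and 0.5005 to 0.739 in WT cells. For Lmo4 it was 1.11 to 1.49 in KO and 0.539 to 0.859 in WT cells. Of all such steps 12 left their counting interval with TMM scaling and 11 in clusters. The 93 WT precursors and the scarce Gfi1 UMIs set the depth limit.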
